A study of Mus musculus with 22 samples.

Results

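The sites of the transcription factor C/EBP beta (gene Cebpb) in mpkCCD cells were compared between cells given dDAVP and cells given vehicle. The members are the regions of the 2 C/EBP beta peak lists, 2401 after dDAVP and 209 after vehicle, which make 2610 of the 3801 regions in the series; the other 1191 are CREB1 regions. A dDAVP peak counted as shared when it overlapped a vehicle peak by at least 1 bp. Chromatin immunoprecipitation with sequencing (ChIP-seq) was done with 2 samples per treatment, and each treatment has a single list. The cells are clone 11 of mpkCCD, a mouse cortical collecting duct line, so all samples stand for 1 clone. They were grown to confluence on permeable supports and kept in medium without serum or hormones. The treated group received 0.1 nM dDAVP, a vasopressin analog selective for the V2 receptor, for 30 min, and the control group received its vehicle for the same time. Each immunoprecipitated library had an input library without antibody, and the inputs of the second C/EBP beta experiment also served a CREB1 experiment. The sample titles number the experiments and do not say more about separate cultures.

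C/EBP beta is a basic leucine zipper protein that binds DNA as a dimer. With another C/EBP protein it recognises a palindromic site, and with ATF4, the activator of the amino acid and stress response, it recognises a composite C/EBP-ATF element. In the collecting duct, vasopressin acts through the V2 receptor and cAMP on water transport by aquaporin-2, and the cAMP pathway is best known for CREB1, which binds the cAMP response element (CRE).

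The lists give positions on the mouse build mm10 and, for each peak, the authors' own score, which belongs to replicate 1 and has no stated scale. Scores rank peaks within a list here, and their heights are not compared between lists. For shared sites the scores of both lists are printed side by side and correlated, as a description only. No reads were analysed, so the depth is unknown and no value has an error over replicates. Absence from a list means only that no peak was called, and such a site may still have been bound. The intervals (95%, Wilson) reflect how many peaks were counted and nothing else.

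The sequences under the promoter peaks show which elements lie there. Letters come from RefSeq promoter windows of build GRCm38.p6, the assembly of mm10, on the strand of the gene. Each stretch of 28 bases has the match in capitals with 10 bases on each side. The first set holds the C/EBP palindrome TTGCGCAA at 6 promoters with a peak in both lists, since 30.6% of the windows under such peaks held it. Rpia (chr6:70792203-70792230, minus strand) encodes an enzyme of the pentose phosphate pathway, Mpc2 (chr1:165461058-165461085, plus) a subunit of the mitochondrial pyruvate carrier, and Man1b1 (chr2:25332694-25332721, plus) a mannosidase of glycoprotein quality control. Smad6 (chr9:64022081-64022108, minus) encodes an inhibitory SMAD, Pnp (chr14:50944161-50944188, plus) purine nucleoside phosphorylase, and Abcc5 (chr16:20426363-20426390, minus) an efflux transporter.
Rpia: gcggggcaggTTGCGCAAgcgagcgggt
Mpc2: gccgttaagcTTGCGCAAcgcctcgccc
Man1b1: ggttctgagcTTGCGCAAcgaccgataa
Smad6: gaaaccttgtTTGCGCAAcaatcagcgc
Pnp: tatttcaagaTTGCGCAAtctatgaaaa
Abcc5: cccttcggtcTTGCGCAAgctttgtgca

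The second set holds the C/EBP-ATF element TGATGCAA, printed as TTGCATCA where it lies on the other strand, at genes of the amino acid and stress response. It was picked for these genes, and windows of other genes under dDAVP peaks also held the element. Got1 (chr19:43524690-43524717, minus strand), Iars (chr13:49682127-49682154, plus), Chac1 (chr2:119351039-119351066, plus) and Herpud1 (chr8:94386307-94386334, plus) had a peak in both lists. Pycr1 (chr11:120643834-120643861, minus), Slc1a4 (chr11:20332700-20332727, minus), Atf3 (chr1:191183426-191183453, minus) and Yars (chr4:129189896-129189923, plus) had one in the dDAVP list alone.
Got1: attgcattggTTGCATCAtacaagcctc
Iars: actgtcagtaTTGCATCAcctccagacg
Chac1: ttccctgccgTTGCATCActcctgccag
Herpud1: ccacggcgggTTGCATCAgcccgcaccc
Pycr1: gccctgtgtaTGATGCAAtgcacaaggc
Slc1a4: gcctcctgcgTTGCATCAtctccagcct
Atf3: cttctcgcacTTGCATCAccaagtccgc
Yars: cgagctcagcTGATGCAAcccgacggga

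Longer stretches show how the elements sit in a promoter. The windows of Rpia (chr6:70792176-70792425, minus strand) and Rbm39 (chr2:156180239-156180488, minus), which encodes a splicing factor, give the 250 bases before the start. Capitals mark the C/EBP core TTGCNNAA, in which N is any base. Both peaks were in both lists, with dDAVP scores of 2438 and 2735. The Rpia window holds 1 core, which is also the palindrome, and the Rbm39 window holds none.
Rpia: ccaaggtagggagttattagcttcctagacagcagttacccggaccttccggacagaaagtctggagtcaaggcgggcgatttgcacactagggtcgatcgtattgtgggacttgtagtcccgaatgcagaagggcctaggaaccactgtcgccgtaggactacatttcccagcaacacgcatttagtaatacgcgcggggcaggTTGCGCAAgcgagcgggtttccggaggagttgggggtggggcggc
Rbm39: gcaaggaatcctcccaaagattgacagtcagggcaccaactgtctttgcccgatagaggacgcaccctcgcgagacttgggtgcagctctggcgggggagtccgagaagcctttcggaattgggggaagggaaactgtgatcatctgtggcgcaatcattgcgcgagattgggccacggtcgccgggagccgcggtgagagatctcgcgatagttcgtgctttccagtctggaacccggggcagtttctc

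Every one of the 209 vehicle peaks lay wholly inside a dDAVP peak, and each in a different one. The dDAVP list held 11.5 times as many peaks and covered 660 kb against 49.0 kb, or 13.5 times the length. In all 209 pairs the dDAVP peak was the wider, by 54 to 492 bp with a median of 168 bp. The ratio of widths ran from 1.15 to 3.44, with a median of 1.74. The centres lay a median of 15 bp apart and within 50 bp of each other in 200 pairs. The vehicle list thus added no location to the dDAVP list. The peak names of replicate 1 were numbered up to 2707 in the dDAVP list and up to 329 in the vehicle list, a ratio of 8.23, and 88.6% and 63.5% of those numbers were present.

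**Figure D1:**
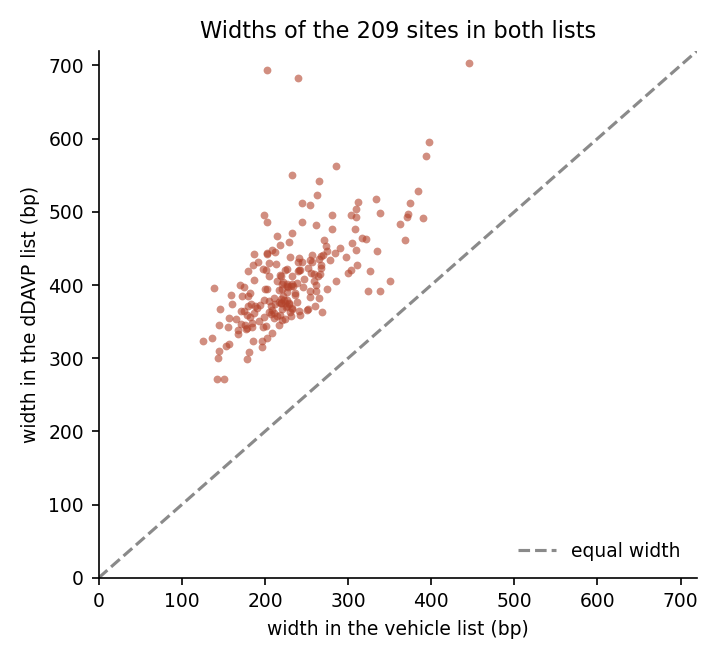
Width of each of the 209 shared sites in the vehicle list (x axis, bp) and in the dDAVP list (y axis, bp), with 1 point per site and a dashed line at equal width. All points lie above the line, and the median ratio of widths is 1.74.

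Sites at Cdkl4, Rcn1, Cotl1, Ptpn12, Abhd11 and Rbm39 were among the 12 highest scores of both lists. The highest dDAVP score, 3880, belonged to a peak inside Cdkl4, a kinase gene of the CDK-like family, at chr17:80560619-80561194, and the vehicle peak there had the highest score of its list, 806. A site 29025 bp from Rcn1, which encodes a calcium-binding protein of the ER, scored 3808 after dDAVP and 598 after vehicle. A site 88 bp from an end of Cotl1, which encodes an actin-binding protein, scored 3259 and 456, and one inside Ptpn12, a tyrosine phosphatase gene, scored 2473 and 776. Abhd11 and Rbm39, both with the peak just upstream of the start, shared the dDAVP score of 2735 and had vehicle scores of 519 and 424. The Abhd11 peak was the widest of the dDAVP list at 703 bp and the widest of the vehicle list at 446 bp. Other genes with the nearest gene end to the 12 highest dDAVP scores were Btbd19, Rarg (a retinoic acid receptor), Slc38a6, Gm31513 and Trib1, a pseudokinase gene known for its control of C/EBP protein turnover.

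Among the 12 highest vehicle scores, 3 lay in 1 region of chromosome 17, near Dynlt1b (711), inside Sytl3 (689) and inside Gm29721 (421). Whether these 3 lie in near-identical copies, among which reads could not be placed with certainty, was not tested. Smarca2, a chromatin remodelling ATPase gene, held an intragenic vehicle peak that scored 579. Vehicle peaks at promoters included Trib1 (441, 112 bp from a gene end) and Rpia (426, 83 bp upstream of the start). Over the 209 pairs the scores of both lists had a Spearman rho of 0.67 and a Pearson r of 0.69 on the log2 scale. This is a description over sites that share the same libraries.

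Whether a dDAVP peak was also called after vehicle moved with its score. The dDAVP list was divided by score into 10 groups of 240 or 241 peaks. In the group of highest scores, 167 of 241 peaks were shared (69.3%, interval 63.2 to 74.8). The next group had 35 of 240 (14.6%, 10.7 to 19.6), the third 6 (2.5%) and the fourth 1 (0.417%). In each of the 6 lower groups 0 of 240 peaks were shared, which allows a share of up to 1.58%. Shared peaks had a median dDAVP score of 1104 against 179 for the 2192 others, and a median dDAVP width of 398 bp against 258 bp.

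**Figure D2:**
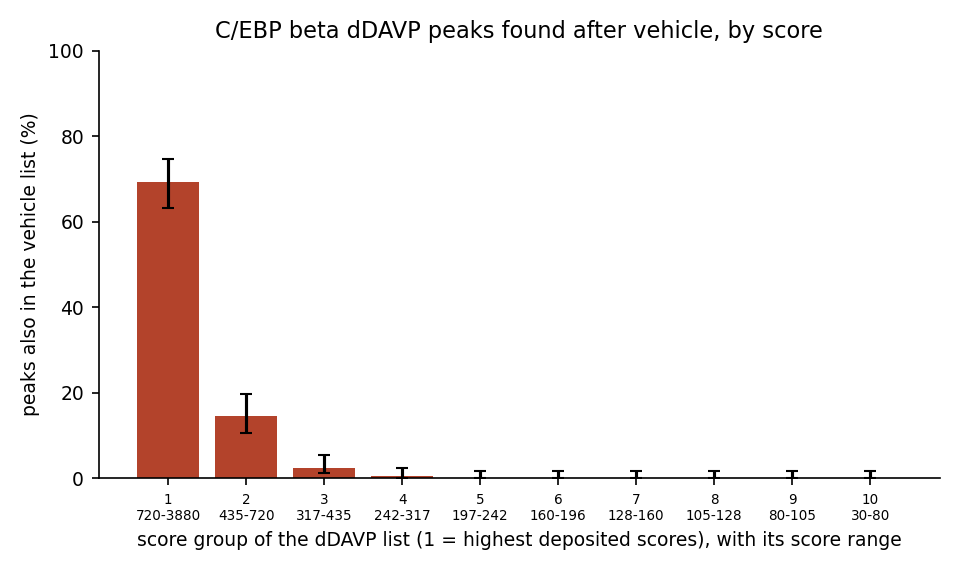
Share of dDAVP peaks that overlap a vehicle peak (y axis, percent) in 10 groups of the dDAVP list by deposited score (x axis, group 1 holds the highest scores). Bars are shares and lines are 95% Wilson intervals; the share was 69.3% in group 1 and 0% in groups 5 to 10.

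Many dDAVP peaks with high scores had no vehicle peak. The shared peak with the lowest dDAVP score lay inside Nln, a peptidase gene, and scored 273, yet 645 of the 854 peaks at or above that score had no vehicle peak. Of the others, 15 scored at or above the shared median of 1104. The next shared peaks from the bottom lay inside Cftr (318), the chloride channel gene, at the start of Spty2d1 (340), and inside Gfod1 (351) and Myo6 (375). At the other end, the highest score without a vehicle peak, 2573, was a piece of 196 bp far from Trib1 that carried the same replicate 1 peak number as a shared piece beside it, so it does not stand for a separate site. The highest after it were a peak inside Smad3 (1731), a mediator of TGF-beta signals, one inside Tomm6 (1396), a mitochondrial import subunit gene, and one 69695 bp from Cebpb itself (1376). Peaks at the starts of Atp6v1f (1303), a proton pump subunit gene, Prmt3 (1303), an arginine methyltransferase gene, and Taco1 (1211) were also in the dDAVP list alone. Peaks inside Arhgef28 (1349), Gpsm1 (1211) and Gse1 (1287) were the rest of the 10 highest. The nearest gene end to the peak inside Gse1 was that of Gins2, 51901 bp away.

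The position of shared and other dDAVP peaks relative to genes was compared next. A protein-coding gene end lay within 1000 bp of the centre in 49 of 209 shared peaks (23.4%, interval 18.2 to 29.6) and 427 of 2192 others (19.5%, 17.9 to 21.2). Fisher's exact test, two-sided, with peaks as units and adjustment over 3 comparisons gave p = 0.260 for this difference of 3.97 percentage points. With a limit of 500 bp the difference was 7.28 points, with an adjusted exact p of 0.0151. Within score groups 1 and 2, chosen after the data were seen as those where both kinds of peak are common, the shares within 1000 bp were 23.3% and 24.0%. Peaks lay inside a gene in 91 of 209 shared (43.5%) and 1085 of 2192 other cases (49.5%). These p-values compare peaks of 1 list and are no test of the treatment.

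Around RefSeq start sites the peaks gathered just upstream. Start sites were known here for 17274 of the 21631 protein-coding genes, so a peak at the start of another gene is not counted as such, and the shares are lower bounds. Chromosome 18 was left out. Of the 2350 dDAVP peaks elsewhere, 403 (17.1%) had a centre within 1000 bp of a start. Of the 403, 277 lay upstream and 124 downstream, with a median position of -91 bp. Among 207 shared peaks 41 were within 1000 bp (19.8%), 33 upstream and 8 downstream, and among 2143 others 362 (16.9%). The bin of 200 bp before the start held 10.6% of shared peaks and 6.02% of the others.

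**Figure D3:**
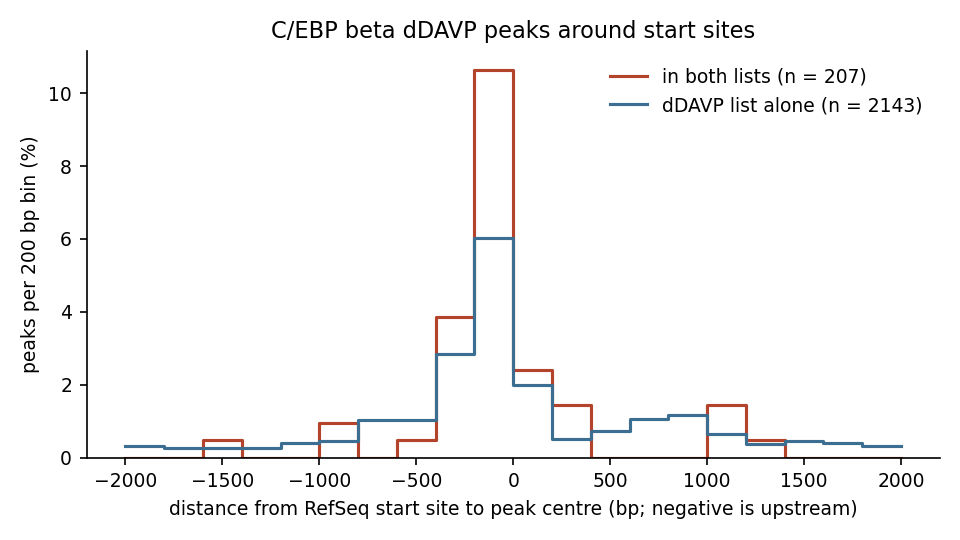
Distance from the nearest RefSeq start site to the centre of each dDAVP peak (x axis, bp, negative upstream), as the percent of peaks per bin of 200 bp (y axis), for shared peaks and for peaks of the dDAVP list alone. Starts of 17274 genes were used, and both lines peak in the bin just before the start, at 10.6% and 6.02%.

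Promoters under the sites held C/EBP elements far more often than promoters at large. A promoter window runs from 250 bases before to 50 after a start, and motifs were searched on both strands. Of 257 dDAVP peaks over a window, 36 were shared and 221 were not. The core TTGCNNAA was present in 21 of 36 shared windows (58.3%, interval 42.2 to 72.9), 78 of 221 others (35.3%, 29.3 to 41.8) and 2160 of all 21045 windows (10.3%). Shared and other windows differed by 23.0 percentage points, with an adjusted p of 0.0301 by Fisher's exact test, two-sided. In score groups 1 and 2 the shares were 57.1% (20 of 35) and 55.0% (22 of 40), a difference of 2.14 points with an adjusted exact p of 1. The score moved with the split, and among windows of unshared peaks the core was in 46.2% at the upper 50% of scores and in 27.3% at the lower 50%.

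The palindrome TTGCGCAA, which is one form of the core, was in 11 of 36 shared windows (30.6%) and 9 of 221 others (4.07%), against 47 of all 21045 (0.223%). This comparison was added after the data were seen. Its adjusted exact p was 1.91e-05 over all peaks and 0.0890 within score groups 1 and 2, where 10 of 35 and 3 of 40 windows held it. The palindromes lay close to the peak centres, at a median of 11.5 bp in shared peaks and 10.5 bp in the others. In the sequences printed above, the first base of the palindrome stood 45 bp before the start of Rpia, 192 bp before that of Mpc2 and 132 bp before that of Pnp. Ptgs2, the inducible cyclooxygenase gene, had one 69 bp before its start under a peak of the dDAVP list alone (score 819), as did Prmt3 at 59 bp.

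The C/EBP-ATF element TGATGCAA was in 5 of 36 shared windows (13.9%), 10 of 221 others (4.52%) and 179 of all windows (0.851%). The shared windows with it included those of Got1, Iars, Chac1 and Herpud1, with dDAVP scores from 699 at Herpud1 to 1313 at Got1. The element lay a median of 4.5 bp from the centre of the 5 shared peaks. CREB1 vehicle peaks covered 605 windows, of which 2 (0.331%) held the element and 49 (8.10%) the C/EBP core.

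CRE letters showed another order. The full CRE palindrome TGACGTCA was in 153 of 605 CREB1 windows (25.3%), in 6 of 221 unshared C/EBP beta windows (2.71%) and in 0 of 36 shared ones, which allows up to 9.64% by the Wilson interval. All windows had it in 2.26% of cases. The CRE core TGACG was in 86.1% of CREB1 windows, 43.9% of unshared and 27.8% of shared C/EBP beta windows, and 23.8% of all windows. A match describes letters in a window and is not a measured binding site.

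**Figure D4:**
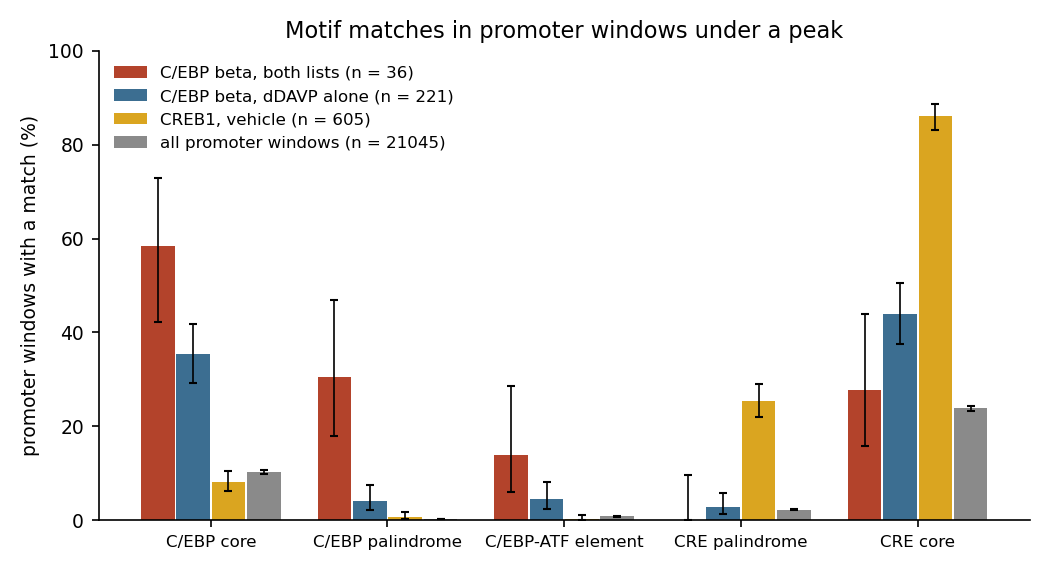
Share of promoter windows with a match (y axis, percent) for 5 motifs (x axis) in windows under shared C/EBP beta peaks, C/EBP beta peaks of the dDAVP list alone and CREB1 vehicle peaks, and in all windows. Bars are shares with 95% Wilson intervals; the C/EBP palindrome reaches 30.6% under shared peaks against 0.223% of all windows.

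Some C/EBP beta sites coincided with CREB1 sites. Of the 2401 dDAVP peaks, 50 overlapped a CREB1 peak of either treatment (2.08%), and 37 of these were at a gene end. The share that position alone would give was not computed, so 2.08% is called neither low nor high. The share was 5 of 209 (2.39%, interval 1.03 to 5.48) for shared and 45 of 2192 (2.05%, 1.54 to 2.74) for other peaks, with an adjusted p of 0.618 by Fisher's exact test, two-sided. The vehicle peaks over a CREB1 peak included those at Frmd8, Spty2d1 and Man1b1. Man1b1 (1474), Frmd8 (1449), Tomm6 (1396) and Csnk1g2 (1096) were among the highest dDAVP scores over a CREB1 peak. Gtf2f1, Qtrt2, Fdxr, Ssu72 and Abcf2 followed, with 902 to 485.

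Genes near the sites were then read from 21 lists of 300 genes in all, beside the share of all 21631 protein-coding genes. A gene counted as near when a peak centre lay within 5000 bp of either end. This held for 1084 genes in the dDAVP list (percent called 5.01) and for 111 in the vehicle list (percent called 0.513). Of the 300 listed genes 66 were near a dDAVP peak (22.0%) and 14 near a vehicle peak (4.67%). The lists were chosen with earlier results of these data known, so their order is a description. Gene ends come from a table that begins some genes well before their RefSeq start, and a peak at such a start is not counted. A start within 5000 bp of a peak would add 57 genes after dDAVP and 8 after vehicle, of which 4 and 1 are listed. The 4 are 1 aminoacyl-tRNA synthetase gene, which is also the 1 after vehicle, the amino acid transporter genes Slc3a2 and Slc7a11 (score 70), and the tight junction gene Tjp1.

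Regulators of the ATF4 pathway had the highest share, with 10 of 16 near a dDAVP peak and 2 near a vehicle peak. Those 2 were Ddit3, which encodes the C/EBP partner CHOP, and Chac1, a glutathione-degrading enzyme gene. The Ddit3 peak at chr10:127290353-127290652 lay 291 bp upstream of the start and was 300 bp wide with a score of 485 after dDAVP, and 144 bp wide with a score of 73 after vehicle. The Chac1 peak lay 194 bp upstream and scored 991 after dDAVP and 95 after vehicle. Peaks at the starts of Trib3 (423) and Atf3 (434), at Vldlr (132), and within Atf4 (141), Eif4ebp1 (63) and Gdf15 (220) were in the dDAVP list alone. The Atf4 gene also had a CREB1 vehicle peak, 22 bp from a gene end.

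Aminoacyl-tRNA synthetases, which load tRNAs with amino acids, were near a dDAVP peak by gene ends in 10 of 20 cases and near a vehicle peak in 2. Those 2 were Iars, 14 bp from the start with a score of 1138 after dDAVP and 84 after vehicle, and Sars, 1052 bp inside the gene with 2059 and 158. In the dDAVP list alone were peaks at Nars (201), Gars (79), Cars (96), Mars1 (172), Yars (160), Qars (131) and Wars (170), all within 1000 bp of a gene end. Enzymes of amino acid synthesis were near a dDAVP peak in 6 of 16 cases. Got1, the aspartate aminotransferase gene, was the 1 with a vehicle peak as well (1313 and 141), while Pycr1 (1196) and Aldh18a1 (91) of proline synthesis, Psat1 (61) and Shmt2 (109) of serine and glycine synthesis, and Mthfd1l (431) had dDAVP peaks alone. Of 13 amino acid transporters, Slc38a7 (548, shared) and Slc1a4 (484) were near by gene ends.

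Among 21 genes of ER chaperones and ER stress 4 were near a dDAVP peak, and Herpud1, an ER-associated degradation gene, was the 1 with a vehicle peak (699 and 95). Atf6 (230), Dnajb9 (180) and Hspa5 (131) were in the dDAVP list alone. In the list of C/EBP factors and partners 4 of 14 were near: Ddit3, Atf4, Nfil3 (548) and Cebpb itself, where a peak with a score of 101 lay 1258 bp past the start. Cebpa and Cebpd had their nearest dDAVP peaks 241223 and 1006870 bp away.

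Genes of the collecting duct principal cell were near a dDAVP peak in 7 of 20 cases. Kcnj1, the potassium channel ROMK, had a peak in both lists, 2712 and 2719 bp from a gene end, with scores of 1423 and 172. The dDAVP peak there stood at -24279 bp from the listed RefSeq start of Kcnj1. Ehf, an epithelial ETS factor, had a peak at a gene end in both lists, with 435 and 62. Aqp2, the vasopressin-regulated water channel gene, had a peak at chr15:99584846-99585098, 427 bp past its end and 5916 bp downstream of its start, in the dDAVP list alone (score 227). Grhl2 (242), Emx2 (888), Fxyd4 (242) and Scnn1a (179) were the other 4. No dDAVP peak was near Aqp3, Avpr2, Scnn1b, Scnn1g, Elf3, Elf5 or Gata3, although an unshared peak inside Scnn1b scored 220 and one 19496 bp from Elf3 scored 845. Of the 24 genes of V2 receptor and cAMP signalling 0 were near a dDAVP peak, and 2 had one within 50000 bp. Markers of intercalated cells (0 of 7), proximal tubule (0 of 7), thick limb and distal tubule (0 of 4), macrophages (0 of 4) and fibroblasts (0 of 3) had none near either. These lists are short, and 5.01% of all protein-coding genes were near, so 0 lies close to that share. Within 50000 bp were 2 of 7 intercalated, 4 of 7 proximal tubule and 1 of 4 thick limb and distal tubule markers. The same held for 2 of 4 macrophage and 1 of 3 fibroblast markers, 10 of 20 principal cell genes and 4092 of all 21631 genes. Peaks are no measure of expression.

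Of 21 AP-1 and immediate early genes 7 were near a dDAVP peak, with Myc (1088 and 169) and Fosl2 (1666 and 182) in both lists. Atf3, Maff (113), Fosl1 (145), Ier2 (422) and Dusp5 (90) were in the dDAVP list alone. Fos and Creb1 had CREB1 vehicle peaks at 116 and 99 bp and their nearest dDAVP C/EBP beta peaks 166747 and 97532 bp away. Circadian clock genes were near in 6 of 19 cases, all of them in the dDAVP list alone: Per2 (198), Nfil3 (548), Cry2 (414), Bhlhe40 (160), Ciart (233) and Per1. Among all protein-coding genes 1084 were near a dDAVP peak and 111 near a vehicle peak, so lacking a vehicle peak was the usual case. The Per1 gene had a peak with a score of 113 at -4113 bp from its listed start, which overlapped a CREB1 peak, and another with a score of 601 at -29 bp.

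In the acute phase and inflammation list 6 of 20 genes were near. Trib1 was the 1 with a vehicle peak (1714 and 441), and Ptgs2 (819), C3 (265), Il6ra (187), Lcn2 (189) and Il6 (122) had dDAVP peaks alone. Of 16 genes of heme and oxidative defence Hmox1, heme oxygenase, was near in both lists (1408 and 395). Of 14 cell cycle genes Mcm3, a subunit of the replicative helicase, was near in both (1650 and 236) and Cdkn1b (561) after dDAVP alone. Cldn8 (150), Esrp2 (223) and Cldn3 (880) made 3 of 15 tight junction and keratin genes, and Rpl10a (188) and Rpl13 (162) made 2 of 20 ribosomal protein genes. Gluconeogenesis and lipid genes, known C/EBP targets in liver and fat, had 0 of 14 near a dDAVP peak. With 5.01% of all protein-coding genes near one, 0 in a list of this size lies close to that share. Within 50000 bp this list also had 0 of 14, against 4092 of all 21631 genes.

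**Figure D5:**
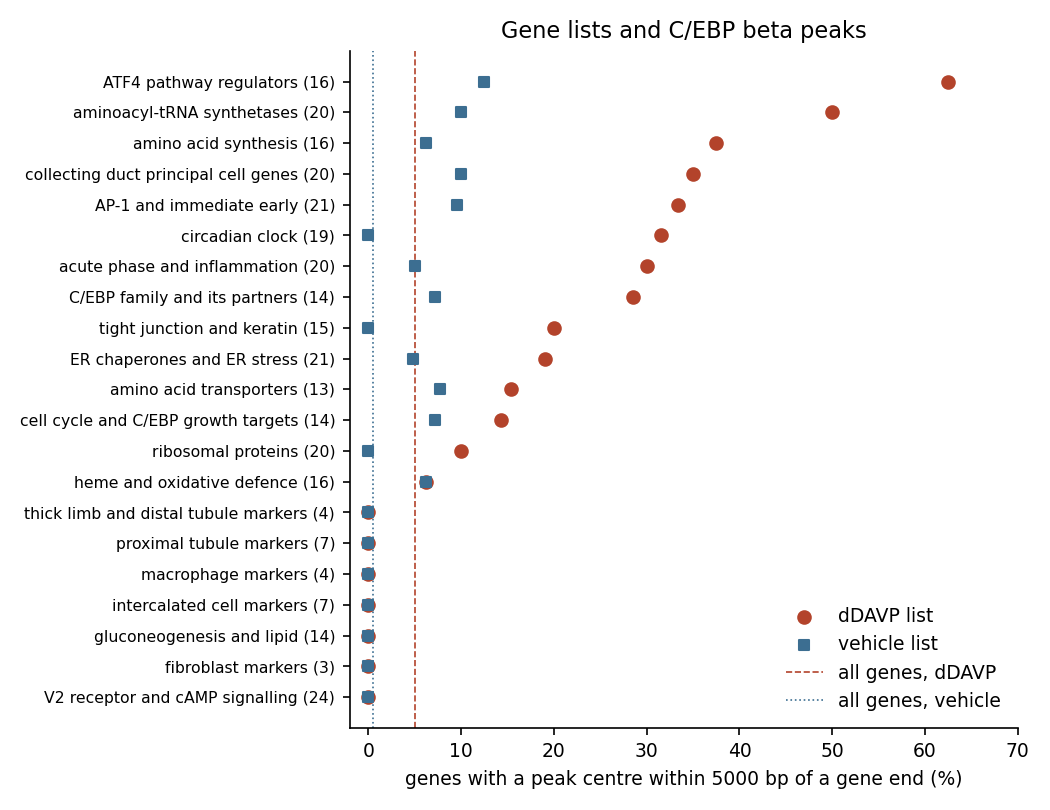
Share of genes with a C/EBP beta peak centre within 5000 bp of a gene end (x axis, percent) in 21 gene lists (y axis, list size in brackets), for the dDAVP and vehicle lists, with lines at the shares of all protein-coding genes (5.01% and 0.513%). ATF4 pathway regulators are highest with 10 of 16 after dDAVP, and 7 lists are at 0 in both.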

How the data were processed

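C/EBP beta ChIP-seq peaks of mpkCCD cells were analysed with 2 samples per treatment. BWA, SAMtools, MACS2, bedtools and mm10 are named, without versions, in the submitters' processing notes; the step that combined replicates is not given in the sources used here. Each of the deposited lists holds positions and the authors' score per peak, without a stated scale, under replicate 1 names. Overlaps, gene distances (RefSeq table, GRCm38.p6, without strand) and motif matches were computed with Python 3.11.15, pandas 2.3.3, NumPy 2.4.6 and SciPy 1.17.1, and tested on simulated data. All 300 listed genes were found in the table, and 17274 of 21631 protein-coding genes had a promoter sequence. The motif test, planned on whole peaks, was run on promoter windows, 1 per peak, because no genome sequence was used here. Fisher's exact test, two-sided, was adjusted by Benjamini-Hochberg over 3 comparisons, with 0.05 as the threshold. Named genes were those nearest to the 12 highest scores of each list, the 10 highest unshared, 5 lowest shared and 10 highest CREB1-overlapping dDAVP peaks, up to 8 near members per gene list plus those with a vehicle peak, the genes with most peaks, and a fixed set of 19. Promoters for which an element is shown outside this rule (Mpc2, Smad6, Pnp, Abcc5) were chosen after their values were seen. Some genes and sequences that the rule names are not reported here. The members and gene lists were chosen with earlier results of these data known.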

Additional observations from a re-analysis of the deposited data

How the results depend on the processing

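No paired analysis was possible because each treatment has 1 list in which its 2 samples are already combined, and leaving out a replicate was not possible for the same reason. The planned motif searches in whole peaks and in 200 bp around peak centres were not run, since no genome sequence was used here. Of 48 alternatives 27 counted as unchanged. A difference did so when it kept its sign and its call, whatever its size, and a count when it stayed within 1.5-fold. The share in the upper 10% of scores did so when it stayed within its interval. The lists' unknown depth limits every count. With the upper 50% of each list by score, 108 vehicle and 108 dDAVP peaks were shared, 591 and 54 genes were near dDAVP and vehicle peaks, and 39 listed genes were near a dDAVP peak. There the shared minus other differences were -0.479 percentage points at gene ends, -0.435 for CREB1 overlap and 8.07 for the C/EBP core (adjusted exact p = 1); unshared peaks then include those whose vehicle partner was left out. The shared share was 86.8% in the upper 5% and 42.0% in the upper 20% of dDAVP scores. A gene end limit of 500 bp gave 7.28 points (adjusted exact p = 0.0151), and the CREB1 dDAVP list alone gave -0.388 points. A limit of 1000 bp left 542 and 55 genes near the dDAVP and vehicle lists, and 50000 bp gave 4092 and 424, with 118 listed genes near a dDAVP peak. In score groups 1 and 2, added after seeing the data, the differences were -0.747 points at gene ends, -0.887 for CREB1, 2.14 for the core and 21.1 for the palindrome (adjusted exact p = 0.0890). Apart from the wider and narrower limits, which change what is counted, the cause of these shifts was not tested.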

Other observations

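Some dDAVP peaks stood close together. With centres at most 10000 bp apart, the 2401 peaks formed 2278 stretches, of which 2172 held 1 peak, 96 held 2 and 10 held 3 or more. The densest was chr6:47654946-47685474, among predicted genes next to Gm40369, with 8 peaks that scored from 116 to 243. None of the 8 was shared, and 3 overlapped a CREB1 peak. Of all 2401 dDAVP peaks 209 were shared, and score groups 4 to 8, which span these scores, had at most 1 of 240 shared. A stretch by Gm40363 further along held 4 unshared peaks, 2 of them over a CREB1 peak. Inside Gm40363 or within 50000 bp of its ends lay 14 dDAVP peaks, the most of any protein-coding gene. Whether these predicted genes are near-identical copies, among which reads could not be placed with certainty, was not tested, so the peak counts there are uncertain. Cldn8, a claudin of the collecting duct, had 4 unshared peaks within 20376 bp, with scores from 150 to 693. Irf2bpl, Crebl2, Rad51b and Lcn2 had 5 peaks each inside the gene or within 50000 bp of its ends. These genes differ in length, at 4.11, 50.5, 551 and 3.10 kb in that order, so the counts cover unlike distances.

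Transfer RNA genes lay under 17 dDAVP peaks, which covered 18 of 408 annotated tRNA genes (4.41%). Of these peaks 3 were shared, at n-TSgct7 (score 1191), n-TNgtt8 (841) and n-TPtgg7 (763). The vehicle list had 2 such peaks, the CREB1 vehicle list 2 and the CREB1 dDAVP list 0. Such peaks made up 0.708% of the dDAVP and 0.957% of the vehicle C/EBP beta peaks, and 0.255% of the CREB1 vehicle peaks.

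The dDAVP peaks were unevenly spread over chromosomes, from 2.28 per Mb on chromosome 19 to 0.117 on X, against 0.923 over all 20. Chromosomes 7 (0.427), 4 (0.512), 14 (0.522) and 18 (0.583) were the next lowest. Per 100 protein-coding genes the same 5 chromosomes had 2.07 dDAVP peaks on X, 3.05 on chromosome 7, 6.02 on chromosome 4, 7.64 on chromosome 14 and 9.98 on chromosome 18, against 11.1 over all. CREB1 vehicle peaks per 100 genes were 0, 1.03, 2.18, 3.17 and 0.978 on these chromosomes in that order, against 3.62 over all.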
